A study of Mus musculus with 8 samples.

Results

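The glutathione S-transferases of the alpha, mu and pi classes are soluble liver enzymes, and 10 of their genes were followed here across 8 Fah-/- samples: Gsta1, Gsta2, Gsta3 and Gsta4 of the alpha class, Gstm1, Gstm2, Gstm3 and Gstm4 of the mu class, and Gstp1 and Gstp2 of the pi class. The genes were chosen by symbol, and the table of 22504 genes held a row for all 10. Expression was given as FPKM, fragments scaled to the length of the gene and the total mapped in the sample, a scale that allows levels to be compared between genes. All samples came from Fah-/- mice of the 129S4 strain background, in which the final enzyme of tyrosine catabolism is missing and which depend on NTBC, an inhibitor acting upstream of it (full dose 7.5 mg/L in drinking water). C 8w (3 samples, labelled liver) had moderate chronic liver injury (MCLI) for 8 weeks on 2.5% of the NTBC dose. C 8w + A 4w (3 samples, labelled liver) had the same 8 weeks and then 4 weeks of severe acute liver injury (SALI) with NTBC withdrawn, and its samples are those called after SALI below. C 12w (2 samples, labelled tumor) had MCLI for 12 weeks. Ages and sexes of the animals were not given in the sources used here, and a group on full NTBC was not analysed here.

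These enzymes join the tripeptide glutathione to electrophilic compounds, which makes them water-soluble and ready for export from the cell. Alpha, mu and pi enzymes act as dimers within their class and overlap in their substrates, which include drug metabolites, epoxides and products of lipid peroxidation. Many of their genes are driven by the transcription factor Nrf2, which binds the antioxidant response element together with a small Maf protein, and by the nuclear receptors CAR and PXR. In the Fah-/- liver the metabolites that accumulate before the missing enzyme are themselves electrophiles that react with glutathione.

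The family is made of near-identical copies, so the sequences come before the values. The stretches below are from GENCODE M21 transcripts (build GRCm38) and show why reads of some members cannot be told apart. The first 120 coding bases of Gsta1, of Gsta2 and of Gm10639, a further alpha-class gene on chromosome 9, are given with bases that differ from Gsta1 in capitals.
Gsta1: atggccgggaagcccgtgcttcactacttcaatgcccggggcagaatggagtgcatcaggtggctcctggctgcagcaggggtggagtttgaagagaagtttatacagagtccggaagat
Gsta2: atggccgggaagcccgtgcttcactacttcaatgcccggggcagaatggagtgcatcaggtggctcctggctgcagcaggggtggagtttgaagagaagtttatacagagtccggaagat
Gm10639: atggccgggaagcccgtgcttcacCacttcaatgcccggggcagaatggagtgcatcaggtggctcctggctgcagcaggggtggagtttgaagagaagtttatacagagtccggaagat
Gsta1 and Gsta2 had 0 differences in this stretch and Gm10639 had 1, so that a 50-base read from it fits several genes. In a later stretch of 120 coding bases, 547 to 666, Gsta2 held 5 differences from Gsta1, again in capitals, and Gm3776 held 1.
Gsta1: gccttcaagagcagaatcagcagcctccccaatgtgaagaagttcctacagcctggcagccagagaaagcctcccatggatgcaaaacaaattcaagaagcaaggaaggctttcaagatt
Gsta2: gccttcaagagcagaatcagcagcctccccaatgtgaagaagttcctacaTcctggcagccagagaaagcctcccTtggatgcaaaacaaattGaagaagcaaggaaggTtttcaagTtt
Gm10639: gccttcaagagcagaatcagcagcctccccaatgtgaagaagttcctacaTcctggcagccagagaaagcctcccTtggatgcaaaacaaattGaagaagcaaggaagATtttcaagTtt
Gm3776: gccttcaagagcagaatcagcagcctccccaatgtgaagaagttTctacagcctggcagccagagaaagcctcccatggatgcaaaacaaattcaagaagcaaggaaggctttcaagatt

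Over the whole coding sequence, Gsta1 and Gsta2 were identical in 97.5% of aligned columns and Gsta1 and Gm3776 in 99.7%. Gsta3 and Gsta4 stood apart within the class, at 73.4% and 65.5% identity to Gsta1. The mu-class genes of chromosome 3 were more diverged, with 86.0% identity between Gstm1 and Gstm2 and 89.5% between Gstm1 and Gstm3. Their first 120 coding bases are shown with differences from Gstm1 in capitals.
Gstm1: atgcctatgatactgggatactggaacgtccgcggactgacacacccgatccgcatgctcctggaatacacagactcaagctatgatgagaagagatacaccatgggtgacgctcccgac
Gstm2: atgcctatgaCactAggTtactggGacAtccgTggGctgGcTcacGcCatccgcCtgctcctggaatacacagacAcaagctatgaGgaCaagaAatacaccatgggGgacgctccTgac
Gstm3: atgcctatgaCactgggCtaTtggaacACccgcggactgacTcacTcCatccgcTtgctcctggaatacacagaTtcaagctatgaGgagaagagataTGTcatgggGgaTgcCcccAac
Gstm2 and Gstm3 each differed from Gstm1 at 18 of these bases. The pi-class pair of chromosome 19 was 98.1% identical, and Gstp2 differed from Gstp1 at 6 of the first 120 coding bases.
Gstp1: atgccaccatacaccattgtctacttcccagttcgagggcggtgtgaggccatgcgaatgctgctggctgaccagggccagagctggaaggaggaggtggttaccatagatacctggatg
Gstp2: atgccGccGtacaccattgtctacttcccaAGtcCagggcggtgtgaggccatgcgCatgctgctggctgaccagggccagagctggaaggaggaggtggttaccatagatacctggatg

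Shared sequence was measured on windows of 50 bases, as the part of a gene's windows that another annotated gene also holds, in percent. Gsta1 shared 90.5% of its windows, Gstp2 54.3% and Gsta2 49.8%. Gstp1 (33.7%), Gstm3 (28.8%) and Gstm1 (18.9%) were intermediate, and Gstm2 shared 5.65%. Gsta3 shared 0.273% and Gsta4 and Gstm4 0%. For these last 3 genes and, for the most part, Gstm2, few exact 50-base stretches occur in other genes. Reads that fit another copy with mismatches were not examined, and Gstm2 is 86.0% identical to Gstm1 in coding sequence. The main partner of Gsta1 was Gm3776 (75.7% of its windows), which was not analysed here, followed by Gsta2 (46.6%) and Gm10639 (31.3%). Gstp1 shared windows with Gstp2 (33.7%) and with the pseudogene Gstp-ps (20.3%), and the windows of Gstm1 were shared mainly with Gstm2-ps1 (14.1%) and Gstm3 (8.16%). How the authors assigned reads that fit several genes was not given in the sources used here.

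Facts of the whole table bear on these genes as follows. Summed FPKM over all genes was between 324735 and 399342 per sample, and the number of reads per sample is unknown. The labels give C 8w and C 12w codes of one series (FT) and C 8w + A 4w codes of another (C), so the code series and C 8w + A 4w cannot be told apart, nor can the tumor label and C 12w. Whether the values of both code series were made in one way was not given in the sources used here, and this touches each comparison with C 8w + A 4w. The albumin gene Alb and the mitochondrial gene mt-Co1 were listed at 0 in all 5 FT samples, and Alb at 12946 or more and mt-Co1 at 11427 or more in the 3 others, whereas the summed FPKM of the 8 other hepatocyte markers in the table was between 8813 and 13708 in all 8 samples. Single markers went both ways. After SALI Ass1 (log2 fold change 4.28) and Apoa1 (1.04) were called higher than in C 8w and Cyp2e1 (-1.25) and Cps1 (-1.10) lower. With a sample left out, the call of Cps1 was lost in 4 of 8 fits and that of Apoa1 in 1. Ass1 had 5.86 to 37.4 FPKM in the FT samples and 267 to 283 in the 3 others, with 38.6% of its windows shared. The labels' RNA protocol speaks of retinas, but 6 of 7 retina markers were under an FPKM of 1 in every sample. All 4 Y-linked genes examined were above 0 in 2 samples, C097 and C098 of C 8w + A 4w, and listed at 0 in the other 6. C097 also had the highest summed level of 6 macrophage markers, 355 against 105 to 170 in the other 7 samples. After SALI 3 of 5 endothelial markers tested (Kdr, Stab2 and Clec4g) were called lower than in C 8w and 0 higher. Of 5 bile duct and progenitor markers tested, 1 (Epcam) was called higher and 0 lower. The part of such markers in the family's differences was not tested. In bulk tissue, fewer cells of a type and less RNA per cell cannot be told apart.

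The family was abundant. Its 10 genes together had 7739 to 8271 FPKM in C 8w, 8465 to 10335 after SALI, and 3774 and 9153 in the C 12w samples, which was between 1.04% and 2.82% of all FPKM in a sample. Gstm1, the main mu-class enzyme of mouse liver, alone held between 48.2% and 62.4% of the family's FPKM. In C 8w the order of mean FPKM was Gstm1, Gsta3, Gsta2, Gstm3, Gstm4, Gstp1, Gsta4, Gsta1, Gstm2 and Gstp2. Gsta3 and Gsta2 overlapped in their samples, as did the neighbours from Gstm3 to Gsta4 and the pair Gsta1 and Gstm2, while Gstm1 stood above all others and Gstp2 below. In C 8w + A 4w the order was Gstm1, Gsta2, Gstp1, Gsta1, Gsta3, Gstm2, Gstm3, Gsta4, Gstm4 and Gstp2. Gstp1, Gsta1 and Gstm2 thus stood 3, 4 and 3 places higher than in C 8w. In this group Gstm1, Gsta2 and Gstp1 did not overlap with their neighbours, nor did Gstm2 with Gstm3, while Gsta1 and Gsta3 overlapped, as did Gsta3 and Gstm2 and the neighbours from Gstm3 to Gstm4.

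**Figure D1:**
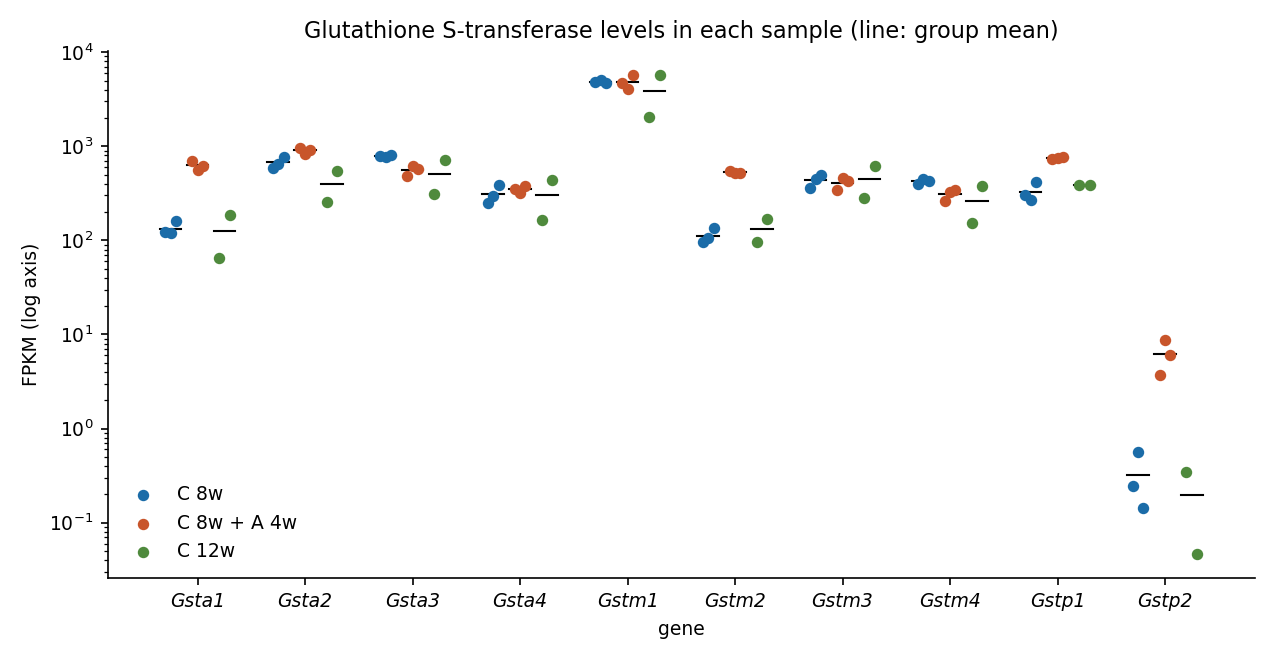
FPKM on a log axis of the 10 genes in each of the 8 samples, coloured by group, with a line at each group's mean. Gsta1, Gsta2, Gstm2, Gstp1 and Gstp2 lie higher in the 3 C 8w + A 4w samples than in the 5 others, as do 19.8% of all genes tested, and for all genes but Gstp2 the lower C 12w point is sample 2e.

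The first comparison asked how the family differed in mice that went from MCLI into SALI. Of the 9 genes that passed the filter on low values (an FPKM of 1 or more in 4 samples or more), 3 were called higher after SALI than in C 8w and 0 lower, with 1 in each class: Gsta1, Gstm2 and Gstp1. Called means an adjusted p under 0.05 in limma, with Benjamini-Hochberg adjustment over the 10244 genes tested. Among all genes tested, 39.4% were called, 25.3% higher and 14.1% lower, so 3 of 9 is near the background share. The samples of the 2 groups did not overlap in 6 of the 9 genes, with 4 higher after SALI and 2 lower, against 39.0% and 22.3% of all genes tested. The median log2 fold change of the 9 genes was 0.17 and that of all genes tested 0.12. Scaling by median ratios moved the latter to 0.0050 and the share of higher among all called genes from 64.2% to 49.4%, and left the 3 calls in the family as they were.

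Gsta1, an alpha-class enzyme known for conjugating products of lipid peroxidation, had FPKM values of 123, 118 and 159 in C 8w and 704, 559 and 616 after SALI. It had 64.9 and 187 in C 12w. All 3 samples after SALI were above the 5 others, by a fitted factor of 4.69 over C 8w (log2 fold change 2.23, SE 0.34, limma adjusted p = 0.00142). Gsta2, whose coding sequence is nearly the same, had 593, 652 and 777 in C 8w, 952, 835 and 921 after SALI, and 253 and 547 in C 12w. The groups did not overlap either, but the log2 fold change over C 8w of 0.43 (SE 0.27) did not pass the test (limma adjusted p = 0.238). The ratio of Gsta1 to Gsta2 was between 0.182 and 0.207 in C 8w, between 0.668 and 0.739 after SALI, and 0.256 and 0.342 in C 12w. Their summed FPKM was between 716 and 936 in C 8w and between 1394 and 1656 after SALI. The sum cannot settle how reads were assigned, because each gene is scaled by its own length and Gm3776 and Gm10639 are left out. The copy Gm10639 had 4.51 to 8.89 FPKM in C 8w, 49.3 to 84.6 after SALI, and 4.62 and 6.29 in C 12w, the same order of groups as Gsta1.

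Like Gsta2, the other alpha-class members Gsta3 and Gsta4 were not called against C 8w. Gsta3, which in mice detoxifies the epoxide of aflatoxin, had 787, 763 and 806 FPKM in C 8w, 480, 612 and 578 after SALI, and 308 and 720 in C 12w. Every C 8w sample was above every other sample, as in 7.87% of all genes tested, but the log2 fold change of -0.50 (SE 0.28) did not pass the test (limma adjusted p = 0.192). Gsta4, which acts on hydroxyalkenals from lipid peroxidation, had 250.9, 299.7 and 392 in C 8w, 351, 317 and 380.5 after SALI, and 164 and 442 in C 12w. Its groups overlapped throughout, with a log2 fold change of 0.17 and a 95% confidence interval from -0.59 to 0.94. The summed FPKM of the 4 alpha genes was 1754 to 2134 in C 8w and 2324 to 2496 after SALI.

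Among the mu-class genes, Gstm2 was the one that rose. It had 96.4, 105 and 134 FPKM in C 8w and 542, 519 and 522 after SALI, against 96.5 and 167 in C 12w. The 3 samples after SALI lay within 1.04 times of each other and far above the 5 others, with a fitted factor of 4.73 over C 8w (log2 fold change 2.24, SE 0.21, limma adjusted p = 0.000116). Gstm1 had 4829, 5005 and 4658 in C 8w, 4670.1, 4083 and 5764 after SALI, and 2062 and 5707 in C 12w. Its groups overlapped, and the log2 fold change was -0.01 with a 95% interval from -0.83 to 0.81. The ratio of Gstm2 to Gstm1 was accordingly between 0.0200 and 0.0287 in C 8w and between 0.0906 and 0.127 after SALI.

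Gstm3 and Gstm4, mu-class enzymes encoded beside Gstm2 and Gstm1, gave no call. Gstm3 had 361, 454 and 499 FPKM in C 8w and 346, 458 and 427 after SALI, with 284 and 614 in C 12w. Its groups overlapped, with a log2 fold change of -0.09 and a 95% interval from -0.73 to 0.55. Gstm4 had 399, 454 and 432 in C 8w and 264, 328 and 344 after SALI, with 151 and 379 in C 12w. All C 8w samples were above all others, as for Gsta3, but the log2 fold change of -0.46 (SE 0.30) did not pass the test (limma adjusted p = 0.25). The mu-class sum, most of it Gstm1, was 5685 to 6018 in C 8w and 5387 to 7056 after SALI, which overlap.

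In the pi class, Gstp1 had 301, 270 and 414 FPKM in C 8w, 735, 746 and 776 after SALI, and 389.5 and 391 in C 12w. Gstp1, the main pi enzyme, is known in rodent liver for its higher level in males and in altered foci. The samples after SALI were above all 5 others, by a fitted factor of 2.33 over C 8w (log2 fold change 1.22, SE 0.18, limma adjusted p = 0.00114). C096, in which the Y-linked genes were listed at 0, had 735 FPKM of Gstp1, 704 of Gsta1 and 542 of Gstm2. C097 and C098 had 746 and 776, 559 and 616, and 519 and 522. The part of sex in these levels was not tested. Gstp2, the low-level neighbour of Gstp1, had 0.244, 0.566 and 0.142 in C 8w, 3.67, 8.83 and 6.004 after SALI, and 0.343 and 0.0466 in C 12w. It failed the filter because only 3 samples reached an FPKM of 1, and it was tested only under other filters. With no filter its log2 fold change over C 8w was 2.39 (SE 0.28, limma adjusted p = 0.00169). Gstp2 was at most 1.18% of the FPKM of Gstp1 in any sample. This share was 0.0343% to 0.210% in C 8w, 0.499% to 1.18% after SALI, and 0.0881% and 0.0119% in C 12w. Gstp2 shares 49.1% of its windows with Gstp1, so its values may hold reads of Gstp1, which was not tested.

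The 3 calls held in all 18 alternative settings run for them, with adjusted p values no higher than 0.00936. The count of calls rested on the spread of the C 12w samples, which enters the fit: without either of them, or with only the 2 groups compared, 6 genes were called, with Gsta2 higher (limma adjusted p = 0.0307 in the 2 groups) and Gsta3 (limma adjusted p = 0.0122) and Gstm4 (limma adjusted p = 0.0214) lower. In those 3 fits 50.6% to 50.7% of all genes tested were called.

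**Figure D2:**
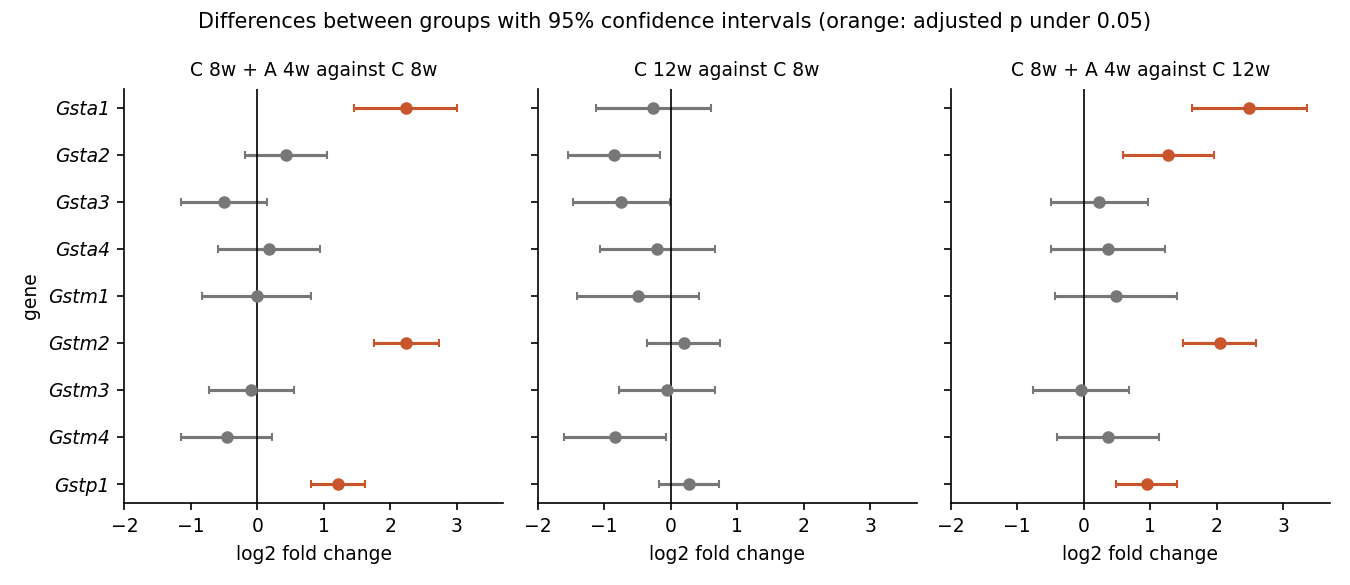
Log2 fold change (horizontal axis, on the log2(FPKM + 1) scale) of the 9 genes tested, in the 3 comparisons, with 95% confidence intervals from limma. Orange marks an adjusted p under 0.05, which was reached by 3 genes, 0 genes and 4 genes from left to right, all of them higher in C 8w + A 4w.

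Across the whole table, large differences after SALI from the levels in C 8w were more frequent among genes with more than 2% of their windows shared than among those with none. Among all genes tested with no shared window (5488 genes), 4.94% had a log2 fold change above 1 in C 8w + A 4w against C 8w and 4.96% below -1. Among genes with some but at most 2% shared (2735 genes), where Gsta3 falls, the shares were smaller, 2.85% and 2.63%. Among genes with more than 20% and up to 50% of windows shared (366 genes), where Gsta2, Gstm3 and Gstp1 fall, 30.3% were above 1 and 9.02% below -1. Among those above 50% (278 genes), where Gsta1 falls, 13.3% were above 1 and 25.5% below -1, and in the range of Gstm1 and Gstm2 (above 2% and up to 20%, 1362 genes) 13.7% and 3.67%. In C 12w against C 8w, whose codes are of the same series, these 5 ranges, in the order given, had 4.39%, 2.96%, 4.64%, 4.32% and 3.74% of genes above 1, and 2.59%, 1.35%, 6.01%, 6.83% and 3.23% below -1. The share below -1 was thus also larger above 20% shared than with none within this series. The 3 genes called after SALI share 90.5% (Gsta1), 33.7% (Gstp1) and 5.65% (Gstm2) of their windows. The 3 with at most 0.273% shared, Gsta3, Gsta4 and Gstm4, were not called in the main fit. With only the 2 groups compared, Gsta3 and Gstm4 were called lower. The part of shared reads in the differences was not tested.

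The copies listed in the table did not all run one way. Gm6665, which shares 2.32% of the windows of Gstm2, was listed at 0 in all 3 C 8w + A 4w samples and had 4.03 to 9.33 FPKM in C 8w and 12.7 and 11.9 in C 12w. Whether reads of such copies entered the values of Gstm2 was not tested. Gm12499, Gstm2-ps1, Gm8834 and Gstp-ps, the other pseudogene partners of the mu and pi genes, were not analysed here.

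**Figure D3:**
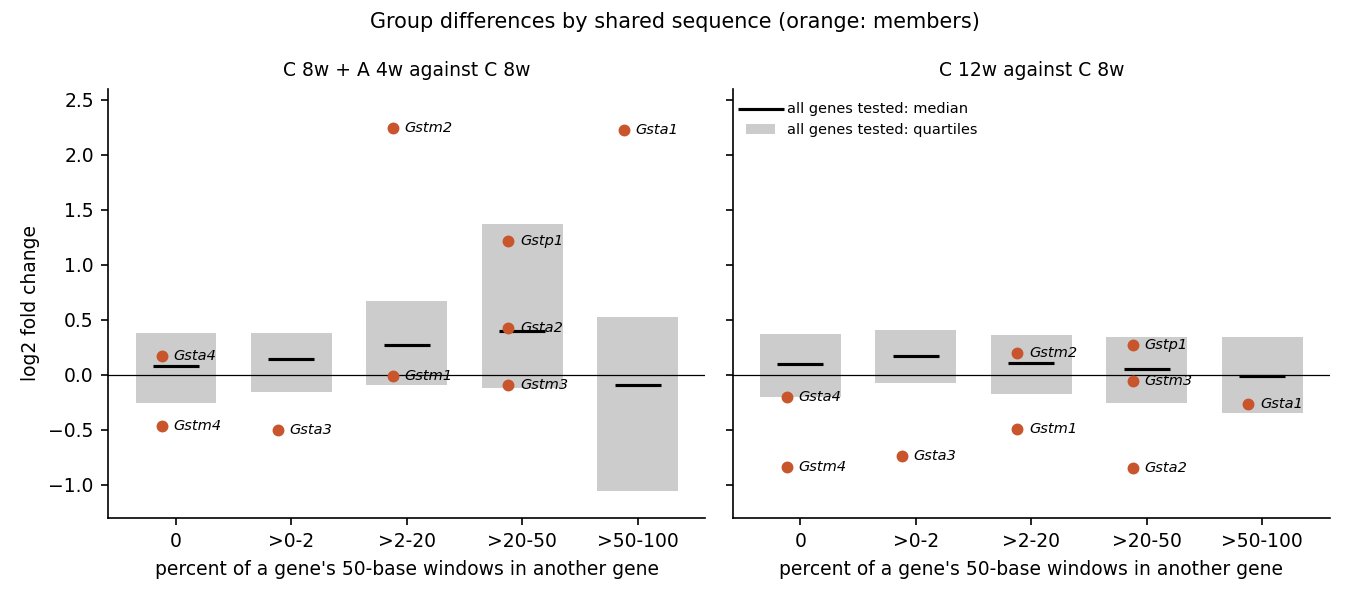
Log2 fold change (vertical axis) of the 9 members, as orange points, by the percentage of their 50-base windows found in another gene, over grey bars from the lower to the upper quartile and black lines at the median of all genes tested. In C 8w + A 4w against C 8w the grey bars are widest where more than 20% is shared and narrower at 0 to 2% than with none (medians 0.40 at 20 to 50% and -0.09 above 50%, against 0.08 with none). Gsta1 and Gstm2 lie above their bars and Gsta3 and Gstm4 below. In C 12w against C 8w the bars differ less, and Gsta2, Gsta3, Gstm1 and Gstm4 lie below theirs.

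The second comparison set 12 weeks of MCLI, in tissue labelled tumor, against 8 weeks. By limma 0 of the 9 genes were called, while 3 (Gsta2, Gsta3 and Gstm4, each lower) had an unadjusted p under 0.05, as had 37.5% of all genes tested. Among all genes tested 19.2% were called, 12.2% higher and 6.98% lower. The median log2 fold change of the 9 genes was -0.26 and that of all genes 0.12, and under median-ratio scaling, which moved the latter to 0.0085 and the share of higher among called genes from 63.6% to 47.4%, Gsta2 was called lower (log2 fold change -0.98, limma adjusted p = 0.0457). Gsta2 had the lowest adjusted p, with a log2 fold change of -0.85 (SE 0.30, limma adjusted p = 0.0787), followed by Gstm4 with -0.83 (SE 0.34, limma adjusted p = 0.109) and Gsta3 with -0.74 (SE 0.32, limma adjusted p = 0.129). For these 3 of the 9 genes both C 12w samples were below all C 8w samples, as they were for 19.6% of all genes tested. Gstp1 differed by 0.27 (95% interval from -0.18 to 0.73) and Gstm2 by 0.20 (from -0.35 to 0.74), and for the remaining 4 genes the intervals also held 0.

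The C 12w samples lay far apart from each other in most of the family. In sample 3e, 7 of the 9 genes were at least 2.16 times their FPKM in sample 2e, and all 9 were higher. The log2 difference, 3e minus 2e, was 1.51 for Gsta1, 1.47 for Gstm1, 1.43 for Gsta4, 1.32 for Gstm4, 1.22 for Gsta3 and 1.11 for both Gsta2 and Gstm3. Gstm2 differed by 0.78 and Gstp1 by 0.0048, with 389.5 and 391 FPKM. Over all genes tested the median of this difference was 0.11, and 3.66% of genes (375) were at least 1 higher. The alpha and mu genes were thus higher together in 3e than in 2e, while Gstp1 was nearly equal. With 1 sample against 1 these values have no test.

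Other gene lists differed between the same 2 samples to unequal degrees. Over all genes tested the median difference was 0.11, and 3.66% were at least 1 higher in 3e. The share of all genes that were higher in 3e was not counted. Of the 17 Nrf2 targets outside glutathione metabolism, 14 were higher in 3e and 6 by at least 1, and of the 13 genes of glutathione synthesis and recycling 9 were higher and 4 by at least 1. All 7 exporters of glutathione conjugates were higher in 3e, 3 of them by at least 1, while of the 14 other glutathione S-transferase genes 5 were higher and 0 by at least 1. None of the 8 hepatocyte markers tested was higher in 3e, and their summed level without Alb was 8813 in 3e and 13708 in 2e. The 7 bile duct and progenitor markers summed to 355 in 3e and 32.0 in 2e, against 13.4 to 18.5 in C 8w and 30.3 to 36.9 after SALI. Most of the sum in 3e and 2e was Spp1, the osteopontin gene (311 and 22.2), and the other 6 markers summed to 44.0 and 9.77. The part of these cell markers in the difference was not tested.

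The count in this comparison rested on the pair. Without 3e, 6 genes were called lower in C 12w (Gsta1, Gsta2, Gsta3, Gsta4, Gstm1 and Gstm4, with log2 fold changes from -0.91 to -1.49), and without 2e only Gstm2 was called, higher by 0.59 (limma adjusted p = 0.0477), with Gsta2 at -0.29, Gsta3 at -0.13 and Gstm4 at -0.17. Of all genes tested 14.9% were called without 3e, 6.32% lower, and 36.1% without 2e. The lone sample was then taken to vary like the other groups.

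**Figure D4:**
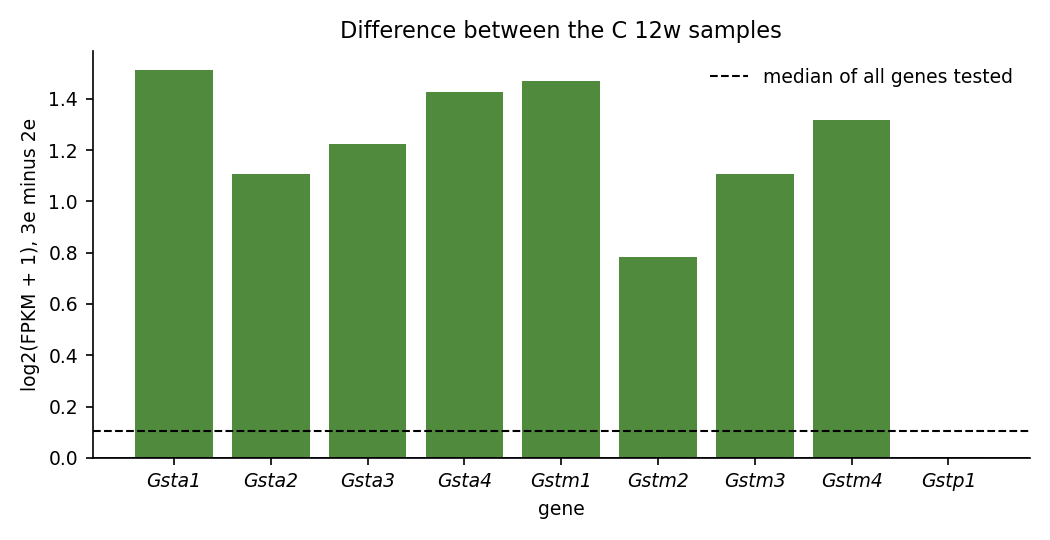
Difference in log2(FPKM + 1) between C 12w samples 3e and 2e for the 9 genes tested, as bars, with the median over all genes tested as a dashed line at 0.11. The 4 alpha genes and Gstm1, Gstm3 and Gstm4 lie between 1.11 and 1.51, Gstm2 at 0.78 and Gstp1 at 0.0048.

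The third comparison set C 8w + A 4w against C 12w, which end after the same 12 weeks. Of the 9 genes 4 were called higher and 0 lower: Gsta1, Gsta2, Gstm2 and Gstp1. Among all genes tested 32.8% were called, 17.4% higher and 15.4% lower. The comparison shares its C 8w + A 4w samples with the first, so the values stand side by side and do not count as independent. Gsta1 was higher by 2.49 on the log2 scale (SE 0.38, limma adjusted p = 0.00188) and Gstm2 by 2.05 (SE 0.24, limma adjusted p = 0.000471). Gsta2 was higher by 1.27 (SE 0.30, limma adjusted p = 0.0132) and Gstp1 by 0.94 (SE 0.20, limma adjusted p = 0.00783). In all 4 genes the 3 samples after SALI were above both C 12w samples, as they were in 28.1% of all genes tested. The sizes rested on the C 12w pair: without 2e Gsta1 was higher by 1.73 and Gsta2 by 0.72, and without 3e by 3.24 and 1.83, called in each fit. The other 5 genes had intervals that held 0, from a log2 fold change of -0.04 for Gstm3 to 0.48 for Gstm1. Without sample 3e, Gsta3, Gsta4, Gstm1 and Gstm4 were also called higher, which made 8 of 9, and of all genes tested 30.5% were then called, 17.6% higher. With no filter, Gstp2 was higher by 2.53 (SE 0.32, limma adjusted p = 0.00243).

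The other gene lists are read against the same shares of all genes: 25.3% higher and 14.1% lower after SALI against C 8w, 12.2% and 6.98% in C 12w against C 8w, and 17.4% and 15.4% after SALI against C 12w. The rest of the superfamily did not share one direction. Of 14 other glutathione S-transferase genes tested, 3 were called higher and 7 lower after SALI than in C 8w, with a median log2 fold change of -0.21 (39.4% of all genes called). The largest changes were in Gstp3, a further pi-class gene beside Gstp1 that shares 0% of its windows (log2 fold change -1.16, limma adjusted p = 0.00365), Gstm6 (1.05, limma adjusted p = 0.0423) and the theta-class gene Gstt1 (-0.96, limma adjusted p = 0.000332). Gstp3 was thus lower where Gstp1 was higher, with 13.0 to 17.6 FPKM in C 8w, 4.85 to 9.33 after SALI, and 30.1 and 35.8 in C 12w. Gstz1, the zeta-class enzyme that makes fumarylacetoacetate, the substrate of the missing Fah, was lower by 0.66 on the log2 scale after SALI (SE 0.16, limma adjusted p = 0.0121), with 144 to 168 FPKM against 229 to 262 in C 8w. Of these 14 genes, 1 was called higher and 7 lower in C 12w against C 8w, led by Gstt3 (-1.86), the omega-class gene Gsto1 (-1.11) and Gstt1 (-1.05), while Gstz1 was at 0.01 (limma adjusted p = 0.978). Against C 12w, 4 were higher and 2 lower after SALI, led by Gstp3 (-2.18), the microsomal Mgst2 (1.99) and Gsto1 (1.96), and Gstz1 was lower by 0.67 (limma adjusted p = 0.0214). With a sample left out, a step added after seeing the data, the call of Gstm6 was lost in 5 of 8 fits (limma adjusted p up to 0.122), those of Gstz1 in 1 fit against C 8w (up to 0.053) and 3 against C 12w (up to 0.0693), and Mgst2 was higher by 1.37 without 3e and 2.62 without 2e.

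Genes of glutathione synthesis, recycling and breakdown changed in both directions. Of 13 tested, 3 were called higher and 4 lower after SALI than in C 8w (39.4% of all genes called), led by Mat1a, which makes S-adenosylmethionine (-2.38, limma adjusted p = 0.000138), Cbs, which opens the route from homocysteine to cysteine (-1.64, limma adjusted p = 0.000337), and Slc7a11, the cystine importer (1.24, limma adjusted p = 0.0409). Mat1a had 776 to 1042 FPKM in C 8w and 120 to 218 after SALI, with no overlap, and Slc7a11 had 45.8 to 74.6 and 108 to 179. At 12 against 8 weeks of MCLI, 3 were higher and 1 lower, led by Chac1, which degrades glutathione (2.82, limma adjusted p = 0.0265), Oplah (-0.91) and Cbs (0.90). Against C 12w, 2 were higher and 4 lower after SALI, led by Cbs (-2.53), Chac1 (-2.08) and Mat1a (-1.88). Chac1 had 4.31 and 27.4 FPKM in the C 12w samples, and without 3e both of its calls were lost, at log2 fold changes of 1.61 (limma adjusted p = 0.0898) against C 8w and -0.88 (limma adjusted p = 0.269) after SALI against C 12w. With a sample left out, the call of Slc7a11 was lost in 5 of 8 fits (limma adjusted p up to 0.145) and that of Cbs in C 12w against C 8w in 3 (up to 0.0807).

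Exporters of glutathione conjugates numbered 7. After SALI 2 were higher and 1 lower than in C 8w (39.4% of all genes called): Abcc1, a pump for glutathione conjugates (1.52, limma adjusted p = 0.00259), Abcg2 (0.43) and Abcc6 (-1.75). Abcc1 remained low, with 0.390 to 0.935 FPKM in C 8w and 3.11 to 4.13 after SALI. Abcc1 was also called higher in C 12w against C 8w (1.33) and Abcc3 lower (-0.91), and in C 8w + A 4w against C 12w Abcg2 was higher (0.66) and Abcc6 lower (-1.87). With a sample left out, the calls were lost for Abcg2 against C 8w in 4 of 8 fits (limma adjusted p up to 0.129), and in C 12w against C 8w for Abcc3 in 4 (up to 0.101) and Abcc1 in 2 (up to 0.0702).

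Among 17 Nrf2 targets outside glutathione metabolism, 7 were called higher and 0 lower after SALI than in C 8w, with a median log2 fold change of 0.65 against 0.12 over all genes, of which 25.3% were called higher and 14.1% lower. They were led by Srxn1, which repairs peroxiredoxins (2.14, limma adjusted p = 6.78e-05), the haem-degrading Hmox1 (1.98, limma adjusted p = 0.000116) and the peroxiredoxin Prdx1 (1.95, limma adjusted p = 1.96e-05). Srxn1 and Hmox1 share 0% of their windows and Prdx1 8.29%. At 12 weeks of MCLI 3 were higher and 2 lower than at 8 weeks, led by Hmox1 (1.11), Osgin1 (1.08) and Ephx1 (-0.82), and in C 8w + A 4w against C 12w 8 were higher and 1 lower, led by Prdx1 (1.89), Osgin1 (-1.65) and Me1 (1.61). With a sample left out, the calls in C 12w against C 8w were lost for Osgin1 in 6 of 8 fits (limma adjusted p up to 0.158) and Ephx1 in 5.

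Of 14 regulators of the family, 5 were called higher and 4 lower after SALI than in C 8w, against 25.3% and 14.1% of all genes. The small Maf genes Maff (1.35, limma adjusted p = 5.54e-05) and Mafk (1.04, limma adjusted p = 0.000648) were higher, and Nr1i3, which encodes CAR, was lower (-1.31, limma adjusted p = 0.000193). Maff had 4.14 to 4.995 FPKM in C 8w and 12.7 to 14.2 after SALI. Nfe2l2, which encodes Nrf2, was not called in any comparison, with log2 fold changes of 0.38 (limma adjusted p = 0.183), 0.36 (limma adjusted p = 0.291) and 0.02 (limma adjusted p = 0.961) in the order of the comparisons above. Jun was higher in C 12w against C 8w (1.27) and Nr1i3 lower (-1.95). Against C 12w, 6 were higher and 2 lower, led by Maff (1.09), Mafk (0.73) and the Nrf2 competitor Bach1 (0.73).

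Promoter sequence was examined because members of 1 class, such as Gstp1 and Gstp2, were higher in the same samples. The window from 250 bases before to 50 after the gene start was available from RefSeq (build GRCm38.p6) for 9 of the 10 genes, in 11 entries. The antioxidant response element core TGACNNNGC, searched on both strands, occurred in 1 of these genes, Gsta3. It occurred in 12.4% of all 32851 promoters of the table and 14.0% of its 27025 genes. The AP-1 site TGAGTCA, also on both strands, occurred in Gstp1 and Gstp2 and in 5.20% of all promoters (5.95% of genes). Both matches are followed by gc, so they read as the core TGACNNNGC with G in place of its first C. Such variants of the core were not counted. The motifs overlap where TGACTCAGC is read, and 0.947% of promoters held both. The 3 promoters with a match are shown with the match in capitals, 5′ to 3′ on the gene's strand.
Gstp1, chr19:4037863-4038162, minus strand: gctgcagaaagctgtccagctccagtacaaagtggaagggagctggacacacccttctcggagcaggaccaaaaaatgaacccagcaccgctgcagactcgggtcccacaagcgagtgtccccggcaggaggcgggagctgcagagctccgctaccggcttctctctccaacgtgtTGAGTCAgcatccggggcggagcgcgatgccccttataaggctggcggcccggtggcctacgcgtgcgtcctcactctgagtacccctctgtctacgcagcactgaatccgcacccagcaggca
Gstp2, chr19:4042172-4042471, minus strand: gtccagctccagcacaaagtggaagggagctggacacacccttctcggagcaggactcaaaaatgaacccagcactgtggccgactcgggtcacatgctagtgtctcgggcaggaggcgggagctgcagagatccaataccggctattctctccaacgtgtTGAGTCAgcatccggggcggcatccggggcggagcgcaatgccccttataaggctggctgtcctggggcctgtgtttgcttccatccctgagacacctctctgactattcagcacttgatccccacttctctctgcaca
Gsta3, chr1:21240335-21240634, plus strand: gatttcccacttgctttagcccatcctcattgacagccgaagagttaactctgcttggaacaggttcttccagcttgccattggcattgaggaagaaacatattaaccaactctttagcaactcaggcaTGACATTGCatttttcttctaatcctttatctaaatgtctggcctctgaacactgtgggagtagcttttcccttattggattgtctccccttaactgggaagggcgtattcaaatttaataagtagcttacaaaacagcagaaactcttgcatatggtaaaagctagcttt
The pi-class windows were 75.9% identical, with the match starting 74 bases before the start of Gstp1 and 89 before that of Gstp2. The promoters of Gsta1 and Gstm2 held neither motif in this window. A match describes letters and not a bound site.

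The genes most alike in pattern were found for the member of each class with the highest mean FPKM over all 8 samples (in the alpha class Gsta2, although Gsta3 had the higher mean in C 8w and in C 12w), as the Pearson correlation of log2(FPKM + 1) over the 8 samples with 10243 other genes. These samples share their groups and code series, so the correlations are a description. For Gsta2 they were Ggt1 (r = 0.989), Cbr3 (r = 0.980) and Vnn1 (r = 0.978). Ggt1, for example, had 51.2 to 70.1 FPKM in C 8w, 71.2 to 91.1 after SALI, and 22.5 and 46.2 in C 12w. For Gstm1 they were Lrrc8e (r = 0.974), A930033H14Rik (r = 0.950) and Rnd2 (r = 0.949), in each of which C 12w sample 2e was the lowest of the 8. For Gstp1 they were Nudc (r = 0.997), Phax (r = 0.995) and Sms (r = 0.986), in each of which the C 8w + A 4w samples were the highest and the C 12w samples nearly equal.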

How the data were processed

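Liver or tumor RNA of 8 Fah-/- samples was sequenced, and samples were assigned to C 8w (3), C 8w + A 4w (3) and C 12w (2) from their treatment labels. The authors deposited FPKM values, fragments scaled by gene length and by mapped fragments per sample, for 22504 genes in 1 table with 0 columns of other samples. The submitters' processing notes list Bowtie 0.12.2 and the build mm8 without a role, and the quantifier and its treatment of reads that fit several genes were not given in the sources used here. FPKM keeps no counts, so the depth and its precision are unknown. The most common ratio of low FPKM values between 2 samples of a group was between 0.959 and 1.03, but this ratio held for only 3.49% to 10.3% of them, so relative depth was not settled.

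The filter kept 10244 genes, those reaching an FPKM of 1 in 4 samples or more, which were compared as log2(FPKM + 1), which understates the change of low genes, in one two-sided limma 3.58.1 fit of the 3 groups (lmFit and eBayes with trend, R 4.3.3) with adjustment after Benjamini-Hochberg (threshold 0.05). The p-values measure the spread between these samples, 2 in C 12w. Scripts were tested on simulated data. Shared sequence, coding sequences and neighbours were taken from GENCODE M21 (GRCm38) and promoters from RefSeq with Python 3.11.15. The annotation behind the table may differ, and no coordinates were joined to values.

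The members and lists were chosen with earlier results of these data known. All 10 members were named with every sample, together with up to 3 copies for each, for each other list the called genes in each direction and at most 3 called genes by largest change, Gstz1 and Nfe2l2 in any case, and the 3 genes most alike to the member of each class with the highest mean over all 8 samples. Alternatives were pseudocounts, floors, scalings, eBayes without trend, the 2 compared groups only, a log2 fold change limit of 1, each sample left out, and a replicate block. A crossed block, and leaving out each sample for genes of the other lists, were added after seeing the data. Of the marker lists, lymphocyte genes were under an FPKM of 1 in all samples, the 5 endothelial genes summed to 39.5 to 43.5 in C 8w, 16.8 to 28.3 after SALI and 25.5 and 19.7 in C 12w, and the 6 stellate and fibroblast genes to 10.6 to 13.4, 9.67 to 19.1, and 15.1 and 31.2. The table has no row for Xist or Tf.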

Additional observations from a re-analysis of the deposited data

How the results depend on the processing

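The 7 calls in the family were made again in all 18 alternatives run for each, with the same direction, except that Gstp1 in C 8w + A 4w against C 12w fell short of a log2 fold change limit of 1 (0.94). The number of genes called in C 8w + A 4w against C 8w was 3, became 6 with the 2 compared groups only, and was 3 to 6 with a sample left out. In C 12w against C 8w it was 0, became 1 under median-ratio scaling and 1 under that scaling over genes with at most 2% shared sequence, and was 0 to 6 with a sample left out. In C 8w + A 4w against C 12w it was 4, and 4 to 8 with a sample left out, the 8 without sample 3e of C 12w. Values not called in the first place changed sign in 12 member results. Under quantile normalization Gstm1 (0.45) and Gstm3 (0.047) turned higher in C 8w + A 4w against C 8w, as did Gsta4 (0.10) and Gstm3 (0.22) in C 12w against C 8w, and the cause was not tested. With a sample left out, log2 fold changes in C 8w + A 4w against C 8w were -0.15 to 0.10 for Gstm1 and -0.22 to 0.026 for Gstm3. In C 12w against C 8w they were -1.02 to 0.50 for Gsta1, -0.91 to 0.52 for Gsta4, -1.23 to 0.24 for Gstm1, -0.20 to 0.59 for Gstm2 and -0.61 to 0.50 for Gstm3. In C 8w + A 4w against C 12w they were -0.38 to 0.85 for Gsta3, -0.34 to 1.08 for Gsta4, -0.25 to 1.22 for Gstm1, -0.59 to 0.52 for Gstm3 and -0.29 to 1.03 for Gstm4.

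The labels of both MCLI groups hold the numbers 2 and 3, which nothing ties to a common animal or day. With the number as a replicate block, 0 members and 252 of all genes were called in C 12w against C 8w, and with the numbers crossed, a pairing added after seeing the data, 0 members and 16 genes. The correlation of the deviations of same-numbered samples was -0.19. The number of all genes called in this comparison was 1962, 677 to 3702 with a sample left out, and 533 with a log2 fold change limit of 1. That limit gave 1128 genes in place of 4034 in C 8w + A 4w against C 8w and 1177 in place of 3356 in C 8w + A 4w against C 12w, the first fell to 2469 without sample 1a of C 8w, and the last was 1996 with the 2 groups only. With counts unknown, precision at low FPKM, as in Gstp2, cannot be given.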
